A study of Mus musculus with 18 samples.

Results

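The comparison described here is that of *Tet2*-KO with WT mouse embryonic stem (mES) cells at the longest of the labelling times of a nascent RNA experiment, and its members are the 6 libraries labelled 40 min, out of 18 in the series. All 6 dishes received 1 mM 5-ethynyl uridine (EU), a uridine analogue that is built into new transcripts and lets them be tagged with biotin and pulled down, for 40 min. The 3 WT and 3 *Tet2*-KO libraries come from dishes of 1 WT line and 1 Tet2-/- line, both obtained from another laboratory, so the spread between libraries is that of dishes and not of separately derived knockout lines, and a difference that comes with the line cannot be told apart from one that comes with the genotype. Both lines were grown with LIF and with the inhibitors CHIR99021 (of GSK3) and PD0325901 (of MEK), and feeder cells were removed by 2 passages on gelatin. ERCC spike-in RNA, a set of synthetic transcripts, was added after the pull-down, in proportion to each dish's total RNA. Reads per ERCC read therefore measure recovered labelled RNA per total RNA and not per cell. Differences between dishes in tagging or in pull-down recovery are not corrected by it.

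TET2 is one of the dioxygenases that oxidize 5-methylcytosine, in DNA and also in RNA. Loss of TET proteins is known to change the methylation of promoters and enhancers in embryonic stem cells, and in RNA the modification is read by proteins such as MBD6, which works with the PR-DUB complex that removes ubiquitin from histone H2A. mES cells kept with LIF and both inhibitors are held in a naive state by the LIF-STAT3 pathway and by a low activity of the ERK pathway, and genes of the germ line and of the 2-cell embryo are largely silent in most of these cells.

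The reads counted on genes numbered 20433043 to 23069143 in the WT libraries and 17931614 to 20221299 in the *Tet2*-KO libraries, and ERCC reads numbered 79017 to 94811 and 44162 to 55247. Intervals and floors given below cover counting error only. Along the first principal component, which held 79.96% of the variance, the 2 genotypes separated, and no library stood apart from its group along it. On the second, with 5.73%, WT replicate 3 lay at -14.8 and WT replicates 1 and 2 at 10.7 and 4.02. The *Tet2*-KO libraries lay between -5.34 and 7.96 on it. The targeted gene was still read, since *Tet2* (chr3:133463679-133545139, mm10, minus strand) had 17092, 15032 and 15122 reads in WT and 12071, 13011 and 11395 in the libraries labelled *Tet2*-KO. These are raw reads, and the *Tet2*-KO libraries held fewer gene reads and fewer ERCC reads. Per ERCC read, *Tet2* was higher in every *Tet2*-KO library than in any WT library. As a share of gene reads it was lower in every one. A sum over the gene cannot show the loss of an exon, so the genotype is that of the label. Of 9 markers of mES cells, 8 were read in every library, with a summed level of 750 to 809 reads per 1000 ERCC reads in WT and 818 to 972 in *Tet2*-KO. Their summed share of gene reads was 0.311% to 0.313% in WT and 0.223% to 0.226% in *Tet2*-KO, and by the TMM-scaled test described below 0 of the 8 rose and 6 fell in share. *Sox2* had 0 reads in all 6. Between 2.45% and 2.50% of reads were left out by the counting as ambiguous between genes, and the overlap setting is not given in the sources used here.

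Change was measured on 2 scales for each of the 19910 genes with enough reads. The first was the number of reads per ERCC read. The second was the share of gene reads, scaled by TMM, a factor that centres the genes of 2 libraries on each other and so removes any change that most genes share. Both are given as log2 fold changes of *Tet2*-KO over WT ± standard error from edgeR's quasi-likelihood test, and a gene is said to rise or fall where its Benjamini-Hochberg adjusted p was under 0.05. Where groups are said not to overlap, all 3 libraries of one lay above all 3 of the other, which held per ERCC read for 71.7% of genes with *Tet2*-KO above and 3.53% with it below, and by share for 26.6% and 25.7%. With 3 libraries against 3, an exact permutation test cannot go below p = 0.1.

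The total of gene reads per ERCC read was 243, 259 and 239 in WT and 429, 366 and 397 in *Tet2*-KO, so the groups did not overlap. The ratio of the means, 247 ± 10.2 (SD, n = 3) and 397 ± 31.6 (SD, n = 3), was 1.61 (exact permutation test, two-sided, p = 0.1). Per ERCC read, 13579 genes rose, which is 68.2% of those tested, and 566 fell, which is 2.84%. The median log2 fold change was 0.67. As a share of gene reads, 3930 genes rose (19.7%) and 3695 fell (18.6%), with a median of -0.01. For each gene the measures differed by close to the same amount, a median of 0.67 on the log2 scale. Hence the shares show which genes departed from the change common to most genes, and the values per ERCC read show whether they ended above or below WT. Every gene whose share rose also rose per ERCC read. Of the 3695 whose share fell, 566 also fell per ERCC read, 1492 were not called and 1637, which is 8.22% of the genes tested, rose per ERCC read. A change of at least 2-fold was called for 4047 genes upward (20.3%) and 316 downward (1.59%) per ERCC read, and for 999 upward (5.02%) and 767 downward (3.85%) by share.

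**Figure D1:**
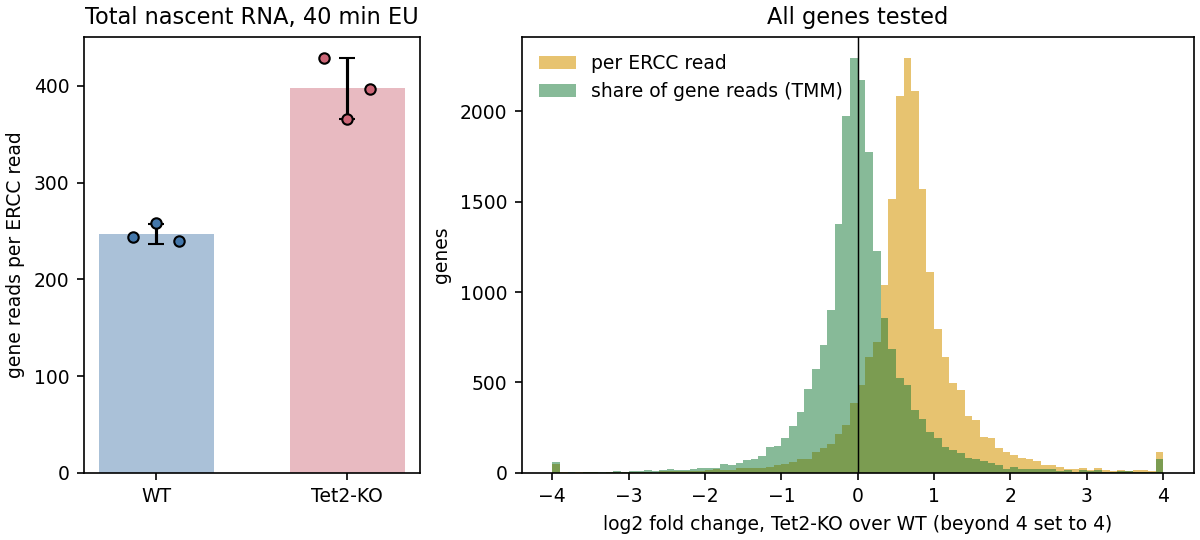
Left, gene reads per ERCC read in the 3 WT and 3 *Tet2*-KO libraries at 40 min of EU (points), with the mean (bar, axis from 0) and SD (line); all 3 *Tet2*-KO points lie above all 3 WT points. Right, numbers of genes by log2 fold change of *Tet2*-KO over WT for the 19910 genes tested, per ERCC read (median 0.67) and as TMM-scaled share of gene reads (median -0.01).

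Genes of the pathways around TET2 moved both ways in share, as did genes at large. Over all genes tested, 68.2% rose per ERCC read, and 19.7% rose and 18.6% fell in share. In the most abundant quintile of protein-coding genes, 94.9% rose per ERCC read, and 37.2% rose and 28.7% fell in share. Of 11 TET enzymes and partners, 9 rose and 0 fell per ERCC read, while by share 2 rose and 5 fell. *Tet1*, the most studied paralogue in these cells, had a share log2 fold change of 0.10 ± 0.02 and *Tet3* of 0.08 ± 0.09, which was not called (edgeR adjusted p = 0.53). *Tdg*, the glycosylase that removes oxidized methylcytosine from DNA, fell in share by 0.44 ± 0.06, and *Pspc1*, whose protein is known to bring TET2 to RNA, fell by 0.19 ± 0.03. Among 11 genes of the PR-DUB complex and its readers, 4 rose and 5 fell by share, *Asxl3*, one of its scaffold genes, by 0.75 ± 0.08. *Mbd5* rose by 0.18 ± 0.03, *Mbd6* fell by 0.19 ± 0.08 and *Bap1*, the catalytic subunit, fell by 0.16 ± 0.07, the last 2 with adjusted p = 0.047 and 0.049 (edgeR). *Mbd6* was not called by share without WT replicate 2 or 3 or any of the *Tet2*-KO libraries, and *Bap1* without any one of the 6, so that 3 genes of the list fell in share without any one library other than WT replicate 1. All 10 RNA m5C methyltransferases and readers rose per ERCC read, with 1 up and 1 down by share, and *Nsun2* was not called by share (-0.04 ± 0.03). Genes of the basal machinery rose per ERCC read, as most genes did, with medians below the 0.67 of all genes. All 12 subunits of RNA polymerase II rose per ERCC read with a median of 0.59. So did all 29 Mediator genes with a median of 0.61 and all 28 pause release and elongation genes with 0.61. By share, 1 rose and 0 fell, 3 rose and 2 fell, and 7 rose and 10 fell, in that order.

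Genes of the germ line stood at the upper end. They encode proteins of meiosis and of the piRNA pathway, and their promoters are known to be silenced by DNA methylation in most other cells. Of 21 tested, 20 rose per ERCC read, with a median log2 fold change of 1.59 against 0.67 for all genes, and 14 rose in share while *Stra8* and *Ddx4* fell. The summed share of gene reads of the list was 0.0190%, 0.0192% and 0.0186% in WT and 0.0371%, 0.0380% and 0.0361% in *Tet2*-KO, a ratio of 1.95 with no overlap (exact permutation test, p = 0.1). *Ddx4* and *Tuba3a* lie in chromosome stretches described below.

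The promoters of 4 germ line genes whose share rose are shown because they hold the hexamer CACGTG, the core of the E-box bound by MAX-type factors. The windows are RefSeq promoters of build GRCm38.p6, running from 250 bases before to 50 after the annotated start, 5′ to 3′ on the strand of the gene, with CACGTG and GCGGGA (an E2F-type motif) on either strand in capitals. They are *Stk31* (chr6:49395354-49395653, plus strand), *Mov10l1* (chr15:88982744-88983043, plus strand), *Hormad1* (chr3:95559427-95559726, plus strand) and *Sycp1* (chr3:102936051-102936350, minus strand).
Stk31: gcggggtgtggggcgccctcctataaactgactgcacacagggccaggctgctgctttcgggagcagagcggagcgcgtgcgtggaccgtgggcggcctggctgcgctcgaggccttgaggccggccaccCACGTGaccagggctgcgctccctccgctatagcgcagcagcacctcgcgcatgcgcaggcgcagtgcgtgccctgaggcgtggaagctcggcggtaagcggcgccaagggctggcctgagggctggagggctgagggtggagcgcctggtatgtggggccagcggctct
Mov10l1: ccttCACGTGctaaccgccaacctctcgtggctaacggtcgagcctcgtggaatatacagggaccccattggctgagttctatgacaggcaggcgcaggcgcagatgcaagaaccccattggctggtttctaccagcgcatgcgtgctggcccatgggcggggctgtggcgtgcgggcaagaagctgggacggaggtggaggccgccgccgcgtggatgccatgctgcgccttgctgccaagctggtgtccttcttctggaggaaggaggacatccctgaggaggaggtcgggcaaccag
Hormad1: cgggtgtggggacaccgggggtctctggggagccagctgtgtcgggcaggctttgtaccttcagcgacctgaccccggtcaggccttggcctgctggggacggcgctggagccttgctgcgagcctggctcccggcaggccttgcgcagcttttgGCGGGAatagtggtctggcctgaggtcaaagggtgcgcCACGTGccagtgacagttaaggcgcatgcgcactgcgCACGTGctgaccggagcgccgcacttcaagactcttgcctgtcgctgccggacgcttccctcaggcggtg
Sycp1: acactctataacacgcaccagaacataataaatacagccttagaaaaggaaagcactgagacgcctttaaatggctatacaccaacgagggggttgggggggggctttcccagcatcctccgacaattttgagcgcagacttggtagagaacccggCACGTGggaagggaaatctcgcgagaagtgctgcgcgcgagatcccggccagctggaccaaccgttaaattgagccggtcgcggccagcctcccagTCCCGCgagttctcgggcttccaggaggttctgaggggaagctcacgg
Windows were found for 19 of the 21 genes. CACGTG was present in 10 of them, 52.6%, against 7.22% of 27025 RefSeq promoters with 1 window a gene and 8.09% of 16521 windows of protein-coding genes. GCGGGA was present in 8, 42.1%, against 20.2% and 26.7%. The shares of 7 of the 10 genes with CACGTG rose and 1 fell, and those of 5 of the 9 without it rose and 1 fell, so the hexamer did not divide the list. The windows held a median of 19 CpG dinucleotides, against 14 for protein-coding genes. These are matches of letters and not measured binding.

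*Stk31*, a germ cell kinase-like protein with a tudor domain, had 3.64, 4.13 and 4.15 reads per 1000 ERCC reads in WT and 36.6, 30.3 and 30.7 in *Tet2*-KO. The groups lay far apart, and its log2 fold change was 3.03 ± 0.11 per ERCC read and 2.36 ± 0.07 by share (edgeR adjusted p = 1.97e-95 and 6.1e-25). *Mov10l1*, an RNA helicase needed for piRNA production, went from 0.622, 0.595 and 0.523 to 5.21, 4.29 and 4.29 reads per 1000 ERCC reads, a share log2 fold change of 2.31 ± 0.15. *Hormad1*, a protein of the meiotic chromosome axis, had 8.04, 8.20 and 7.69 in WT and 31.8, 26.3 and 28.3 in *Tet2*-KO, and its share rose by 1.18 ± 0.06. Neither gene had overlapping groups on either measure. *Dazl*, an RNA-binding protein of germ cells, rose in share by 1.28 ± 0.18 and *Sycp1*, a synaptonemal complex protein, by 1.13 ± 0.10. *Rpl10l*, the testis copy of a ribosomal protein gene, rose by 1.66 ± 0.11, and reads of such a copy can be hard to assign. By contrast *Sycp3* was not called in share (0.04 ± 0.19). *Stra8*, the retinoic acid-induced gatekeeper of meiosis, had 4.65, 4.83 and 4.49 reads per 1000 ERCC reads in WT and 4.10, 3.91 and 3.47 in *Tet2*-KO, and its share fell by 0.95 ± 0.11.

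Genes of the 2-cell-like state were mostly lower in *Tet2*-KO. This state is taken up now and then by a small part of an mES culture and is marked by the *Zscan4* cluster. Of 17 genes tested, 14 fell per ERCC read and 15 in share, with a median share log2 fold change of -2.77. In bulk libraries, fewer cells of a kind and less RNA per cell cannot be told apart. *Zscan4c* had 1.75, 1.87 and 1.499 reads per 1000 ERCC reads in WT and 0.317, 0.398 and 0.464 in *Tet2*-KO. Its share fell by 2.77 ± 0.20 and that of *Zscan4d* by 3.13 ± 0.26 (edgeR adjusted p = 9.3e-14 and 5.4e-12), and the groups of both genes were apart on both measures. Over the 4 tested markers of this state and the 2 with few reads, 307 to 348 reads per library in WT compared with 30 to 41 in *Tet2*-KO. The *Zscan4* and *Usp17l* genes are near-identical copies, and the counting set apart reads whose alignment was not unique. Reads of these copies may therefore be missing from their counts or assigned to another copy. *Tdpoz1* was an exception, with 0.243, 0.291 and 0.325 reads per 1000 ERCC reads in WT and 4.89, 3.87 and 5.13 in *Tet2*-KO, a share log2 fold change of 3.34 ± 0.22. *Zfp809*, a retroviral silencer, also rose in share, by 0.15 ± 0.05, a call lost without *Tet2*-KO replicate 1 or 2 or WT replicate 1 or 2, and it had more reads than any *Zscan4* gene, 1750, 1460 and 1693 in WT and 1642, 1736 and 1447 in *Tet2*-KO. The summed share of the list was 0.0127% in WT and 0.0105% in *Tet2*-KO.

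Pluripotency genes were divided. Of 11 core factors tested, 9 rose and 0 fell per ERCC read, and 3 rose and 4 fell in share. *Pou5f1*, which encodes OCT4, had 26.2, 27.6 and 24.2 reads per 1000 ERCC reads in WT and 47.4, 40.3 and 42.0 in *Tet2*-KO and was not called in share (0.06 ± 0.05). *Nanog* rose per ERCC read by 0.51 ± 0.09 and fell in share by 0.16 ± 0.03, and it lies in a chromosome 6 stretch described below. *Tdgf1*, a NODAL co-receptor, fell in share by 0.78 ± 0.03 and *Lin28a*, an RNA-binding protein, by 0.75 ± 0.06. Neither was called per ERCC read, where their levels in both groups overlapped.

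The naive factors were lower in share as a group, with 2 up and 10 down of 16 and a median of -0.21. Per ERCC read 10 rose and only *Zfp42* of the list fell. *Zfp42* (chr8:43295063-43306980, minus strand), which encodes the zinc finger protein REX1, had 126, 135 and 125 reads per 1000 ERCC reads in WT and 51.0, 40.4 and 48.4 in *Tet2*-KO, with log2 fold changes of -1.47 ± 0.09 per ERCC read and -2.14 ± 0.03 by share (edgeR adjusted p = 9.4e-46 and 4.0e-33). A processed pseudogene of it on chromosome 15, *Zfp42-ps1*, had 504, 461 and 440 reads in WT and 0, 2 and 1 in *Tet2*-KO. *Klf4* and *Klf2*, Krüppel-like factors downstream of LIF and ERK, fell in share by 0.70 ± 0.04 and 0.71 ± 0.07 and were not called per ERCC read. *Klf4* had 38.4, 40.6 and 41.5 reads per 1000 ERCC reads in WT and 43.7, 35.9 and 38.8 in *Tet2*-KO, so these groups overlapped. *Esrrb*, an orphan nuclear receptor, fell in share by 0.05 ± 0.02, a call that was lost without any one of the 6 libraries. *Prdm14*, a repressor of FGF signalling and of DNA methyltransferases, rose in share by 0.57 ± 0.08 and *Tbx3* by 0.21 ± 0.03.

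**Figure D2:**
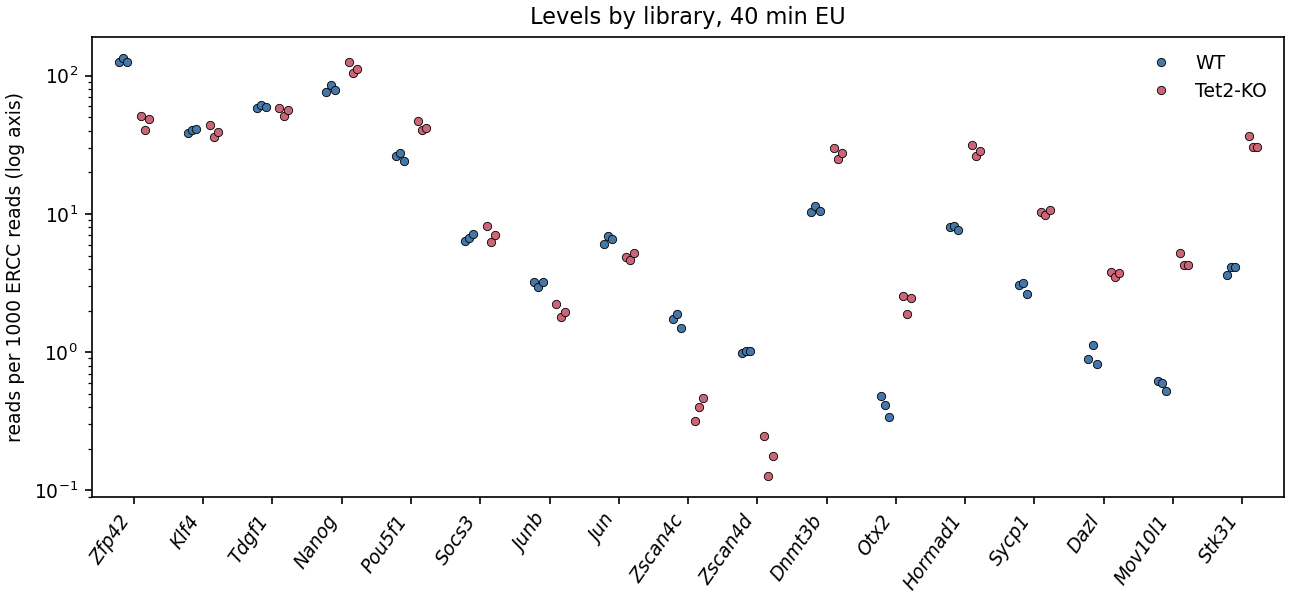
Reads per 1000 ERCC reads, on a log axis, of 17 genes in each of the 3 WT and 3 *Tet2*-KO libraries at 40 min of EU; each point is a library. *Zfp42*, *Junb*, *Jun*, *Zscan4c* and *Zscan4d* are lower in *Tet2*-KO, *Klf4*, *Tdgf1* and *Socs3* overlap, and the others, *Otx2*, *Dnmt3b* and the germ line genes among them, are higher.

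Genes under LIF and ERK control fell in share more often than they rose. In the LIF-STAT3 list, 0 of 13 rose and 10 fell in share, with a median of -0.40, while per ERCC read 7 rose and 1 fell, *Junb*, which is also on the immediate early list. *Stat3*, the transcription factor itself, had 36.7, 39.7 and 36.3 reads per 1000 ERCC reads in WT and 49.95, 41.4 and 44.8 in *Tet2*-KO, a log2 fold change of 0.27 ± 0.09 per ERCC read, not called without *Tet2*-KO replicate 1, and -0.40 ± 0.03 by share. Its target *Socs3*, a feedback inhibitor, fell in share by 0.59 ± 0.12, and *Il6st*, the shared receptor gp130, by 0.57 ± 0.03. The receptor *Lifr* was not called in share (-0.05 ± 0.03). Among 14 feedback and target genes of ERK, 2 rose and 7 fell in share. *Spry4* and *Spry2*, of the Sprouty inhibitors of receptor tyrosine kinase signalling, fell by 1.30 ± 0.07 and 0.91 ± 0.06 and the phosphatase gene *Dusp5* by 0.92 ± 0.10, whereas the related *Dusp6* was not called (0.14 ± 0.15) and the ETS factor *Etv5* rose by 0.10 ± 0.02.

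Immediate early genes, which respond to growth factors within minutes without new protein, were lower as a group: 0 of 21 rose and 14 fell in share, with a median of -0.84. Per ERCC read 4 rose and 4 fell, and the median was -0.16 against 0.67 for all genes. *Egr1* had 161, 145 and 175 reads in WT and 22, 22 and 16 in *Tet2*-KO, or 1.70, 1.84 and 2.03 against 0.498, 0.398 and 0.354 reads per 1000 ERCC reads. Its log2 fold change was -2.16 ± 0.22 per ERCC read and -2.82 ± 0.19 by share. For *Junb* the levels were 3.23, 2.96 and 3.23 in WT and 2.22, 1.81 and 1.95 in *Tet2*-KO (-0.66 ± 0.16 per ERCC read, -1.33 ± 0.12 by share). *Jun* also fell on both measures, by 0.41 ± 0.13 and 1.08 ± 0.11, and its groups did not overlap. *Fos* fell in share by 1.30 ± 0.23, but its fall per ERCC read was not called without *Tet2*-KO replicate 2, *Tet2*-KO replicate 3 or WT replicate 1. *Btg2* and *Nr4a1* fell in share by 0.84 ± 0.08 and 0.75 ± 0.12 and were not called per ERCC read. *Myc*, *Srf*, *Klf10* and *Nr4a2* were not called in share and rose per ERCC read, by 0.58 to 0.72. The summed share of the list was 0.0305%, 0.0302% and 0.0325% in WT and 0.0212%, 0.0205% and 0.0209% in *Tet2*-KO.

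**Figure D3:**
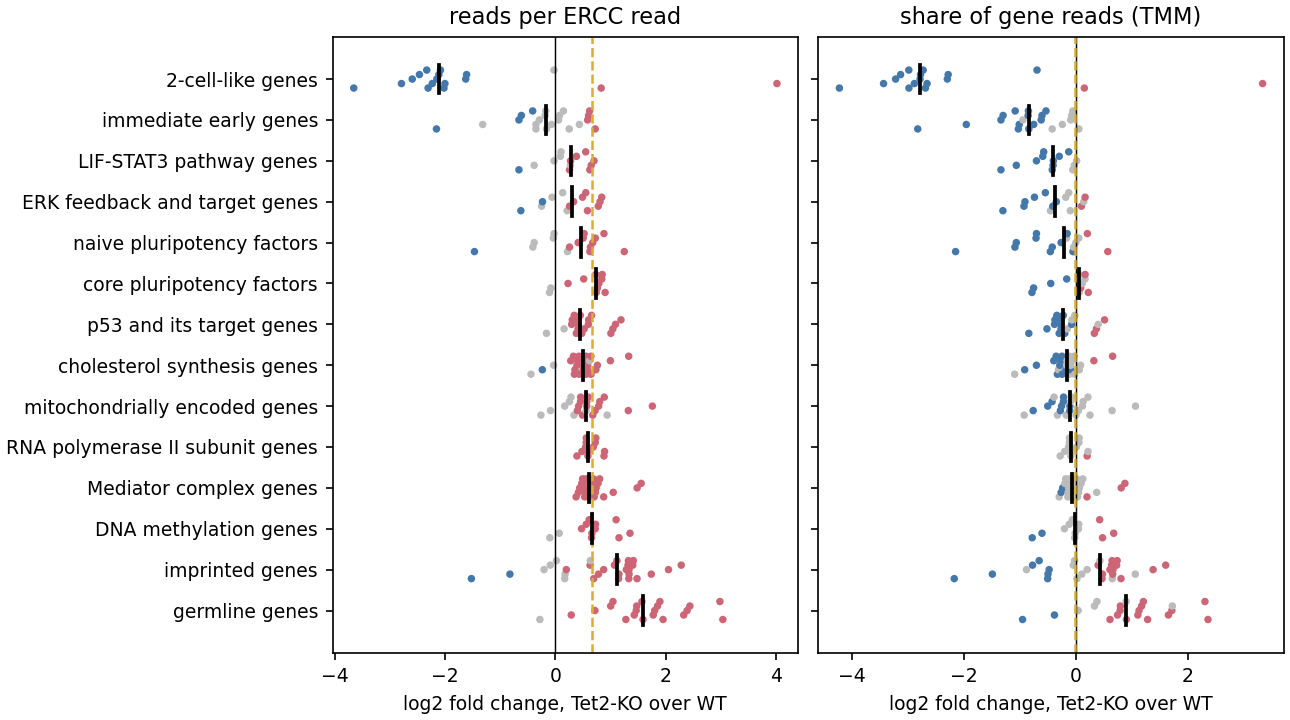
Log2 fold change of *Tet2*-KO over WT at 40 min of EU for each tested member (point) of 14 gene lists, per ERCC read (left) and as TMM-scaled share (right); red points rose, blue points fell, grey points were not called, black bars are list medians and the dashed line is the median of all genes. The 2-cell-like list lies lowest (share median -2.77) and the germ line list highest (0.90).

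Imprinted genes, expressed from one parental copy, moved both ways. Of 29 tested, 13 rose and 7 fell in share, with a median of 0.43, and 21 rose and 2 fell per ERCC read. *Airn*, a paternal antisense RNA over *Igf2r*, had 7.46, 7.54 and 6.50 reads per 1000 ERCC reads in WT and 37.9, 31.3 and 35.2 in *Tet2*-KO, and its share rose by 1.61 ± 0.05. Without a stated strand setting its reads cannot be told apart from those of *Igf2r*, which was not called in share (0.11 ± 0.06). *Mest*, a paternally expressed hydrolase gene, rose by 1.38 ± 0.13, *Kcnq1ot1*, a long antisense RNA of the *Kcnq1* domain, by 0.65 ± 0.02, and *Peg3*, a zinc finger gene, by 0.61 ± 0.04. All 3 had separate groups on both measures. Transcripts of the maternal *Dlk1*-*Meg3* domain on chromosome 12 fell together in share, *Meg3* by 0.49 ± 0.03, *Rian* by 0.47 ± 0.03 and *Mirg* by 0.50 ± 0.06, as did the paternal *Rtl1* of the same domain, by 0.77 ± 0.10. *Meg3* was not called per ERCC read (0.18 ± 0.09), except without *Tet2*-KO replicate 2 or WT replicate 2. *Phlda2* and *Slc22a18*, neighbours in the *Kcnq1* domain, fell in share by 2.17 ± 0.54 and 1.49 ± 0.23, the first from few reads, 14, 27 and 26 in WT and 3, 3 and 7 in *Tet2*-KO.

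Among DNA methylation genes, *Dnmt3b* and *Dnmt3a*, which set new methylation, rose in share by 0.68 ± 0.06 and 0.48 ± 0.06, and *Dnmt3b* had 10.4, 11.5 and 10.5 reads per 1000 ERCC reads in WT and 29.8, 24.9 and 27.7 in *Tet2*-KO. Their cofactor *Dnmt3l* fell in share by 0.78 ± 0.06 and was not called per ERCC read, and the maintenance enzyme *Dnmt1* was not called in share (-0.02 ± 0.03). Of all 12 DNA methylation genes, 3 rose and 2 fell in share. Among 13 genes of the formative and primed states, which follow the naive state, 4 rose and 2 fell. *Otx2*, a homeobox factor of the epiblast, had 0.485, 0.418 and 0.337 reads per 1000 ERCC reads in WT and 2.54, 1.88 and 2.46 in *Tet2*-KO, and its share rose by 1.78 ± 0.19 (edgeR adjusted p = 1.6e-09). The cadherin gene *Cdh2* rose by 0.56 ± 0.08, while *Fgf5*, a widely used marker of that state, was not called (-0.90).

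Markers of other cells had few reads. The 7 markers of feeder fibroblasts gave 75 to 105 reads in a WT library and 104 to 116 in a *Tet2*-KO library, of which *Lum* had 0 in all, and the collagen genes *Col1a2* and *Col3a1* rose in share by 0.84 ± 0.34 and 1.67 ± 0.54 from 1 to 35 reads a library. Both calls were lost without WT replicate 3, that of *Col1a2* also without *Tet2*-KO replicate 3 or WT replicate 1 and that of *Col3a1* also without *Tet2*-KO replicate 2. Per 1000 ERCC reads the feeder markers summed to 0.872 to 1.13 in WT and 1.88 to 2.57 in *Tet2*-KO, with 3 of 4 tested rising per ERCC read. A longer list of fibroblast and matrix genes did not rise in share as a group. Of its 13 genes tested, 2 rose and 5 fell in share, and 7 rose and 0 fell per ERCC read. The whole list held a mean of 0.119% of gene reads across the WT libraries against 0.0953% across the *Tet2*-KO ones, with no overlap. The 6 primitive endoderm markers, with 111 to 168 reads a library, summed to 1.64 to 1.77 and 2.01 to 3.23 per 1000 ERCC reads, and 2 of 4 tested rose per ERCC read and 0 in share. The 4 trophectoderm markers, with 102 to 225 reads, summed to 1.11 to 1.33 and 4.07 to 4.98, and of 2 tested both rose per ERCC read and 1 in share. None of the 3 marker sums per 1000 ERCC reads overlapped between the groups, nor did those of 71.7% of all genes, with *Tet2*-KO above. By share of gene reads, the primitive endoderm sums did overlap, at 0.000675% to 0.000728% in WT and 0.000549% to 0.000814% in *Tet2*-KO. The feeder sums were 0.000364% to 0.000455% and 0.000514% to 0.000647%, in that order. Those of trophectoderm were 0.000455% to 0.000554% and 0.00096% to 0.001255%. In a longer trophectoderm list, *Gata3* rose and *Tead4* fell in share out of 8 genes tested, and 4 rose and 0 fell per ERCC read. *Gata3* alone had 98 to 109 reads per WT library and 177 to 211 per *Tet2*-KO library. The longer list held a mean of 0.0158% of gene reads across the WT libraries against 0.0123% across the *Tet2*-KO ones, with no overlap. Much of that sum was *Tead4*, with 2644 to 2986 reads per WT library and 1644 to 1824 per *Tet2*-KO library. *Tead4* lies in a chromosome 6 stretch described below. Of the 7 tested genes of the list outside the stretches, 1 rose and 0 fell in share. The part of such cells in the results was not tested.

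Targets of p53 and genes of cholesterol synthesis mostly rose per ERCC read and fell in share more often than they rose. In the p53 list 17 of 19 rose per ERCC read, and in share 3 rose and 12 fell, with a median of -0.22. *Cdkn1a*, which encodes the cell cycle inhibitor p21, fell in share by 0.34 ± 0.05 and *Ccng1* by 0.26 ± 0.04, whereas *Trp53* itself rose by 0.37 ± 0.05. In the cholesterol list 21 of 25 rose per ERCC read, and 2 rose and 11 fell in share. *Insig1* fell in share by 0.35 ± 0.08 and *Sqle* by 0.26 ± 0.06, and both rose per ERCC read, by 0.33 ± 0.11, a call lost without *Tet2*-KO replicate 1, and by 0.40 ± 0.10.

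Among abundant transcripts, the nuclear RNA *Malat1* fell in share by 0.36 ± 0.01 and rose per ERCC read by 0.32 ± 0.08. *Neat1*, the scaffold of paraspeckles, had 110, 116 and 107 reads per 1000 ERCC reads in WT and 120, 94.6 and 107 in *Tet2*-KO, which overlapped, and fell in share by 0.73 ± 0.03. Mitochondrially encoded genes took up 2.05%, 2.05% and 2.03% of gene reads in WT and 1.87%, 1.87% and 1.90% in *Tet2*-KO, and of the 23 tested 15 rose per ERCC read and 9 fell in share. Some of the most abundant genes rose per ERCC read and fell in share. For *mt-Cytb*, *mt-Nd1*, *mt-Co1* and the cytoskeletal linker gene *Dst*, the values were 0.42 to 0.56 and -0.25 to -0.11. *Gm47283*, annotated on the Y chromosome, had 0.19 ± 0.08 and -0.48 ± 0.04, the first not called without *Tet2*-KO replicate 1, WT replicate 1 or WT replicate 2. Its reads numbered 70779 to 80441 in WT and 43843 to 52788 in *Tet2*-KO, unlike *Uty* and *Ddx3y* below, which were near 0 in *Tet2*-KO. The origin of its reads was not tested. Long intergenic RNA genes took up 4.68% ± 0.151 (SD, n = 3) of gene reads in WT and 4.14% ± 0.111 (SD, n = 3) in *Tet2*-KO, although the median share log2 fold change of the 1612 tested was 0.12. Replication-dependent histone genes were at 0.123% ± 0.0112 (SD, n = 3) and 0.1002% ± 0.00591 (SD, n = 3). Of 52 such comparisons of summed shares, 45 did not overlap (exact permutation test, p = 0.1 each, 0.116 after Benjamini-Hochberg adjustment), so none could pass the threshold. Among protein-coding genes the median share log2 fold change went from -0.09 in the quintile of shortest gene span to 0.08 in that of the longest, and it was -0.17 for the 299 genes with 1 exon.

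Some genes were on in one line and near 0 in the other. *Ubd* (chr17:37193892-37196095), which encodes the ubiquitin-like protein FAT10, had 525, 481 and 505 reads in WT and 0, 1 and 0 in *Tet2*-KO, a ratio per ERCC read of 841 with a 95% counting interval of 151 to 33235. *Zbbx* had 458, 400 and 409 reads in WT and 5, 2 and 3 in *Tet2*-KO. The Y-linked *Ddx3y* and *Uty*, both with X-linked relatives, had 253 to 288 and 772 to 827 reads in WT and 0 to 6 and 9 to 11 in *Tet2*-KO. All 4 of the Y-linked genes listed fell in share, *Kdm5d* being the weakest and not called without *Tet2*-KO replicate 3. Among protein-coding genes kept by the rule for named genes (mean log2 CPM above 2 over all 18 libraries), the shares of *Bdkrb2*, *Chit1*, *Greb1*, *Trh*, *Egr1* and *Plet1* came next, with falls of 2.81 to 3.21. *Trh*, the precursor of thyrotropin-releasing hormone, had 18.1, 19.2 and 20.0 reads per 1000 ERCC reads in WT and 4.46, 3.87 and 3.96 in *Tet2*-KO.

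At the other end, *Gm37596*, *Kctd16*, *Tpte*, *Wdr64*, *Ttll11*, *Xkr9*, *Gm10260*, *Prex2*, *Nckap5* and *Tdpoz1* rose most in share of the protein-coding genes kept by that rule, by a log2 of 3.34 to 5.70. *Prex2*, an exchange factor for the GTPase RAC, was the most abundant of them, with 8.48, 8.24 and 9.18 reads per 1000 ERCC reads in WT and 213, 175 and 200 in *Tet2*-KO. *Ttll11*, a tubulin polyglutamylase, went from 0.928, 1.10 and 0.930 to 32.4, 28.0 and 29.8. In all, 2648 protein-coding genes with a higher share and 1742 with a lower share passed the whole rule. It asks for a mean log2 CPM above 2, separate groups on both scales and calls on both, in either direction per ERCC read. By the share call alone, 3146 of 15158 protein-coding genes rose and 3205 fell. The rule leaves out more that fell, since 1492 genes that fell in share were not called per ERCC read, against 0 that rose. Among genes that are not protein-coding, *Gm30228* had 4, 2 and 12 reads in WT and 1439, 1636 and 1391 in *Tet2*-KO, and *Gm44067* had 2, 1 and 2 against 346, 408 and 306, a ratio of 381 per ERCC read (95% counting interval 163 to 1176). *Gm44748*, *Gm36816* and *Gm15459* rose and *Gm10499*, *Gm40853*, *Gm15218* and *2410018L13Rik* fell, each with a share log2 fold change beyond 4 in size.

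The change was not spread evenly over the chromosomes. In bins of 10 Mb with at least 10 genes above a mean log2 CPM of 2, the median share log2 fold change lay between -0.27 and 0.27 in 247 of 256. Of the other 9, 8 were below -0.3 and 1 above 0.3, and they were neighbours: 6 on chromosome 6 from 80 Mb to 140 Mb, 1 on chromosome 6 from 140 Mb, and 2 on chromosome 13 from 100 Mb. These bounds were read from the data, so the values of the stretches carry no test. In the first stretch, from *Lrrtm4* to *Pik3c2g*, the median was -0.43 over 520 genes, of which 275 fell and 26 rose in share, and 0.24 per ERCC read against 0.73 on chromosome 6 before 80 Mb. Its summed share was 2.99%, 2.99% and 2.99% of gene reads in WT and 2.18%, 2.18% and 2.19% in *Tet2*-KO. The 75 genes beyond it had a median of 0.44, and the 121 genes of the chromosome 13 stretch one of -0.47, with a summed share of 1.08%, 1.08% and 1.07% in WT and 0.674%, 0.674% and 0.674% in *Tet2*-KO. DNA copy number was not analysed here.

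Several genes named above lie in these stretches, among them *Nanog*, *Tet3*, *Trh*, *Tead4*, *Gm44067*, *Tuba3a*, *Il6st* and *Ddx4*. *Slc2a3*, the glucose transporter GLUT3, lies beside *Nanog* on chromosome 6 and fell in share by 0.79 ± 0.03. Without the genes of the stretches, 8 glycolysis and glucose transport genes rose and 2 fell in share, compared with 8 and 5 with them. Polycomb genes went from 11 up and 8 down to 10 and 5, and DNA methylation genes, retrotransposon silencing genes, RNA m5C methyltransferases and readers and core pluripotency factors each lost 1 gene that fell, from 2, 2, 1 and 4. Of the lists described above at length, the counts were 13 rising and 1 falling of 19 germ line genes, 2 and 9 of 15 naive factors and 0 and 9 of 12 LIF-STAT3 genes. No gene of the immediate early or 2-cell-like lists lies there.

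**Figure D4:**
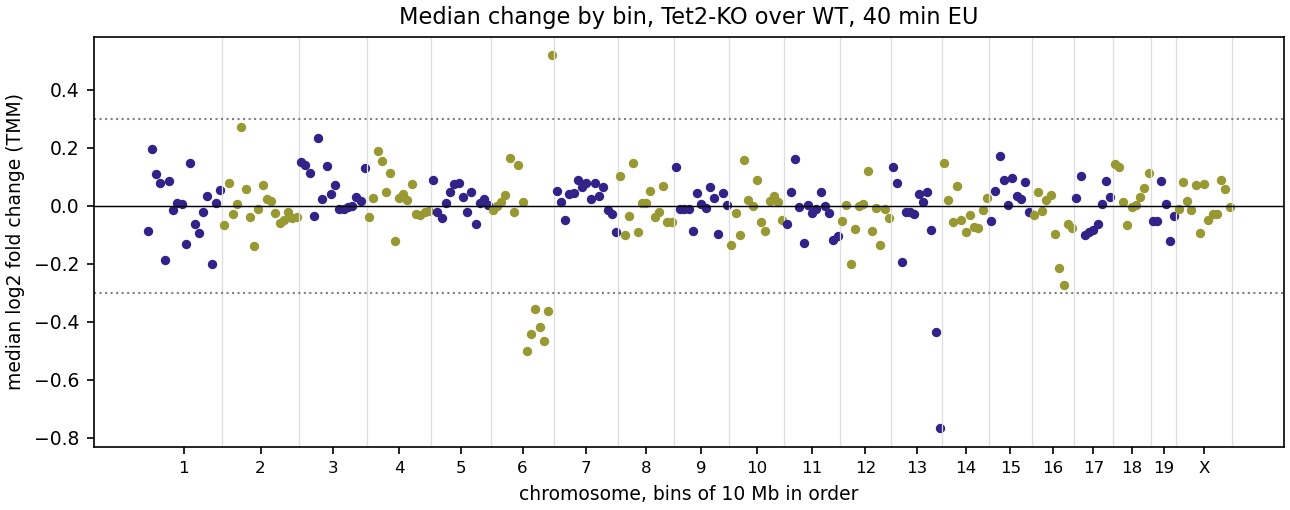
Median share (TMM) log2 fold change of *Tet2*-KO over WT at 40 min of EU in bins of 10 Mb with at least 10 genes above a mean log2 CPM of 2, in order along the autosomes and X; each point is a bin and dotted lines mark 0.3 and -0.3. The 9 bins outside the lines are 7 on chromosome 6 from 80 Mb to 150 Mb and 2 on chromosome 13 from 100 Mb to 120 Mb. On chromosome 6 the first 6 lie below and the last 1 above, and both on chromosome 13 lie below.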

How the data were processed

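Nascent RNA was labelled with EU in *Tet2*-KO and WT mES cells, and the 6 libraries of 40 min were compared within a series of 18. Per the labels and the study's methods, the authors trimmed reads with Trimmomatic 0.39, aligned them to mm10 with HISAT2 2.2.1 and counted them per gene with HTSeq 0.12.4. The deposited files hold raw, unnormalized counts for 54446 genes and 92 ERCC transcripts, and the feature type, strand and overlap settings of the counting are not given in the sources used here. Summary rows that name no gene were left out, and 2 of them differed between the groups without overlap. Reads on no feature were 13.2% to 13.9% in WT and 14.4% to 14.8% in *Tet2*-KO. Reads that were not unique were 5.24% to 5.41% in WT and 5.94% to 5.99% in *Tet2*-KO. Names, classes and positions come from GENCODE M21 (54409 ids matched).

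Counts were fitted with edgeR 4.0.16 (quasi-likelihood test, R 4.3.3) on all 18 libraries in 6 groups, with filterByExpr at a minimum count of 10, which left 19910 genes. The library size was either the summed ERCC reads or the gene reads with TMM factors. Mean log2 CPM, also used for the quintiles of abundance, is over all 18 libraries, those of the shorter labelling times included. P-values were adjusted by Benjamini-Hochberg over all genes tested. On simulated counts for 19910 genes, TMM recovered all 200 genes changed by a log2 of 1, with 11 false calls. The changed genes had a mean log2 CPM above 2, with as many up as down. In the data 19.7% of genes rose and 18.6% fell in share. The simulation therefore does not give the rate of false calls in the data. Totals and summed shares were compared by exact permutation tests. Separate cultures are not documented beyond dishes, so p-values measure the spread between these libraries, which may be technical.

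Genes named in the text are the 10 highest and 10 lowest protein-coding genes and the 5 highest and 5 lowest others by share among those called on both scales without overlap at a mean log2 CPM above 2, the 5 most abundant genes that rose per ERCC read and fell in share, up to 4 members of each gene list with the greatest change, and fixed genes of the TET2 pathway. A gene that this rule selects is not reported here. Some further list members, and the chromosome stretches, were chosen after their values were seen. The members and lists were chosen with earlier results of these data known. Alternatives covered the samples fitted, the filter, the tool (DESeq2 1.42.0), the scaling, the call rule, a replicate block and leaving out each library. Replicate numbers were checked for pairing: the correlation of deviations between same-numbered libraries was -0.05, -0.02 and -0.06, so they do not pair the samples.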

Additional observations from a re-analysis of the deposited data

How the results depend on the processing

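The total log2 ratio per ERCC read kept its direction under every alternative run, and stood between 0.63 and 0.74 when one library was left out. No called value changed its sign. Asking for at least 2-fold changes left 4047 higher and 316 lower genes per ERCC read and 999 higher and 767 lower by share, and asking for 10 counts in every library, which tests 15888 genes and drops genes that are near 0 in one group, left 344 lower per ERCC read. Without one library, 12347 to 13479 genes rose and 456 to 551 fell per ERCC read, and 3432 to 3570 rose and 3149 to 3321 fell by share. The other fits moved these 4 counts by less than 1.5 times, DESeq2 giving 13322 and 531 per ERCC read and 3751 and 3702 by share. Of 173 genes followed through all alternatives, 156 kept their call and direction per ERCC read and 154 by share.

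With the replicate number as a block, 13527 genes rose and 550 fell per ERCC read, and 3927 rose and 3703 fell by share. The samples share only a number (correlations given under processing), so this is no paired design.

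Depth limits the precision of genes with few reads: *Col3a1*, with 1 to 15 reads a library, had a standard error of 0.54 for its share log2 fold change.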

Other observations

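Other gene lists showed single members that departed from the change common to most genes. Ribosomal protein genes had a median share log2 fold change of 0.00 over 73 genes, with 11 up and 14 down, and *Rps2* and *Rps7*, which encode proteins of the small subunit, fell by 1.15 ± 0.08 and 0.99 ± 0.05. Both also fell per ERCC read. These genes have many pseudogenes, and how many of their reads were set apart as not unique or assigned to a pseudogene is not known. Among 14 heat shock chaperone genes, 6 rose and 4 fell in share. *Hspa8*, the constitutive HSP70, had 207, 212 and 192 reads per 1000 ERCC reads in WT and 206, 180 and 200 in *Tet2*-KO, which overlapped, and its share fell by 0.73 ± 0.02, while *Hsp90aa1* rose by 0.23 ± 0.02. Of 20 genes of the integrated stress response, 1 rose and 4 fell, *Atf3* by 0.84 ± 0.17.

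Of 13 Wnt targets, 4 rose and 3 fell in share. *Axin2*, a feedback inhibitor of the pathway, fell by 0.70 ± 0.06 and *Cdx1*, a homeobox gene, by 1.74 ± 0.13, while the receptor gene *Tnfrsf19* rose by 0.96 ± 0.06. Among 19 genes that silence retrotransposons, all rose per ERCC read and 7 rose and 2 fell in share. The chromatin remodeller *Atrx* rose by 0.37 ± 0.02 and the heterochromatin protein gene *Cbx5* by 0.34 ± 0.03. Of 33 Polycomb genes, 11 rose and 8 fell in share, and of 62 histone genes 3 rose and 18 fell. In the X inactivation centre, the antisense RNA *Tsix* fell in share by 0.77 ± 0.09 and *Ftx* by 1.21 ± 0.10, and *Xist*, which *Tsix* overlaps, was not called. Without a stated strand setting the reads of *Tsix* and *Xist* cannot be told apart. The housekeeping genes *Actb* and *Gapdh* were not called in share (-0.11 ± 0.05 and -0.07 ± 0.08) and rose per ERCC read by 0.57 ± 0.09 and 0.60 ± 0.10.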
